A study of Mus musculus with 304 samples.

Results

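The 10 genes described here carry the MHC class I antigen presentation pathway, and they were followed in granule cells of the mouse dentate gyrus, 1 cell per library. They were taken by symbol (B2m, H2-K1, H2-D1, Tap1, Tap2, Tapbp, Psmb8, Psmb9, Psme1 and Nlrc5), not by a limit on their measured values. The set was chosen with earlier results of these data known, so it is not blind to them. All 10 had a row among the 22800 genes counted. In granule cell libraries taken 14 days after kainate, the heavy chains H2-K1 and H2-D1 had reads in 20 and 22 of 29 cells, against 3 of 31 control cells each. In libraries taken 1 month after an Id2 virus, all 10 genes were higher than after a GFP virus. Most of the day 14 reads lay in libraries that also held microglial RNA (microglia are the macrophages of the brain), whereas the Id2 difference was also seen in libraries with little microglial RNA.

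MHC class I molecules are heavy chains, H2-K1 and H2-D1 in the mouse, paired with the light chain B2m, and they show peptides from the cell's own proteins to CD8 T cells. The peptides are cut by the proteasome. Interferon exchanges its catalytic subunits for Psmb8 and Psmb9, and Psme1 encodes a part of the PA28 activator cap. Tap1 and Tap2 form the transporter that carries the peptides into the endoplasmic reticulum, Tapbp (tapasin) holds the empty class I molecule at that transporter, and Nlrc5 is a transactivator of class I genes. Neurons hold little class I under most conditions, interferon raises it, and class I molecules in neurons have also been linked to synapse removal and plasticity.

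Each library came from 1 granule cell whose cytosol was drawn into a patch pipette (Patch-seq). Kainic acid, a glutamate receptor agonist that provokes seizures, had been given as 70 nl of a 5 mM solution into the hippocampus. The groups were cells from mice without an injection (labelled DG, "control", 31 cells), from the injected side 1 day after kainate (KA1_DG_ipsi, 58 cells), 14 days after kainate (Kainate_DG, side not labelled, 29 cells), and 1 month after an adeno-associated virus (AAV) with GFP (GFP_Control, 59 cells) or with Id2 (Id2_OE, 71 cells). Id2 encodes a helix-loop-helix protein that blocks the DNA binding of its partners. Strain, age, promoter and serotype of the virus are not given in the labels. No label names an animal, so the cells of a group cannot be assigned to animals, a group counts as 1 sample, and differences between groups are given without a test. Control, kainate and virus cells carry different series of titles, so group and collection cannot be told apart in the comparisons with control cells. Day 14 and day 1 cells carry title numbers that do not overlap, so the same holds for day 14 against day 1.

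Of 304 labelled cells, 291 had a column of counts, 252 of them labelled as passing quality control, and 248 of these fell into the 5 groups. Median reads per cell in genes ranged from 1738610 in control cells to 7615492 at day 14, and single cells from 32487 to 27708910. No pair of libraries within a group correlated above 0.755 (Pearson's r over genes). A pair of passing libraries labelled low_DG matched a control cell at 0.997 and 0.998 and was left out. The 11 granule cell markers all had reads in all 5 groups, with summed levels of 3756 CPM (a gene's reads for each 1000000 reads of the group) in control cells, 1669 at day 1, 1477 at day 14, 4049 in GFP and 2828 in Id2 cells. They were thus lower in the day 14 and Id2 cells than in the groups these are set against, and the part of this in the results was not tested. Some libraries held almost none: the lowest cell had 0 at day 1, 0.779 in control cells and 4.64 with Id2. Id2 itself was found in all 71 Id2 cells, at 37369 CPM against 93.2 in GFP cells. The 14 microglia markers stood at 3723 CPM in control cells, 772 at day 1, 6795 at day 14, 169 in GFP and 603 in Id2 cells.

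Of the 10 genes, 8 had a promoter in RefSeq (build GRCm38.p6), and Tap2 and Nlrc5 had none in that table. Stretches upstream of the RefSeq start are shown for the genes whose letters bear on the pathway's shared control, with the motifs named next in capitals, 5′ to 3′ on the strand of the gene named. The first is the kappa-B site GGGATTCCC, a target of NF-kappa-B. The second is GAAANNGAA, from the core of the interferon-stimulated response element. The others are CCAAT and TGACG, the letters of the Y box and of the X2 box through which Nlrc5 acts. Both strands were searched, and these motifs do not overlap each other in the stretches shown.
H2-K1 (chr17:34000348-34000467, minus strand): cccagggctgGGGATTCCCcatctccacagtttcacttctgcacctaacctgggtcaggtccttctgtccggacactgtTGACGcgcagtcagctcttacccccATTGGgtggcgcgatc
H2-D1 (chr17:35262914-35263033, plus strand): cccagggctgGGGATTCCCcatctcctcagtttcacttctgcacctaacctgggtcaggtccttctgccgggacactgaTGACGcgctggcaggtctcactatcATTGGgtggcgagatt
B2m (chr2:122147538-122147648, plus strand): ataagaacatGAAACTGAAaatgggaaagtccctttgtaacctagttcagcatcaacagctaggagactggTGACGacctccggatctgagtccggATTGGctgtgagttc
Tap1 and Psmb9 (chr17:34187331-34187555, plus strand): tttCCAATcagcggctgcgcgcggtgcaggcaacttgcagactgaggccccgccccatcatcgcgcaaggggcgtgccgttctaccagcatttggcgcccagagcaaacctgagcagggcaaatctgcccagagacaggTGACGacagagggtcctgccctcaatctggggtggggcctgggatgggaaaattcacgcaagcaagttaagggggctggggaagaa

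The H2-K1 and H2-D1 stretches were identical at 89.2% of 120 bases. In both, TGACG began 69 bases after the first base of the kappa-B site. The CCAAT match on the other strand began 94 bases after it. The exact letters GGGATTCCC were found in 0.353% of 32851 promoter windows of 300 bases, and in no other of the 8 genes. The last stretch is the whole sequence between the divergent starts of Psmb9 and Tap1, which lie 226 bases apart. Over the 300-base windows, CCAAT matched in 6 of the 8 genes (37.4% of all windows). TGACG matched in 5 (20.8% of all windows), namely B2m, H2-K1, H2-D1, Psmb9 and Tap1. The Psmb9 and Tap1 windows share 275 bases, so the same CCAAT and the same TGACG are counted for both genes. With the likeness of H2-K1 and H2-D1, these counts are not of separate sequences and are not evidence of enrichment. GAAANNGAA matched in B2m and, as TTCGCTTTC on the other strand just after the start, in Psme1 (8.56% of all windows). Only the exact letters named were counted. Other forms of the interferon element and of the kappa-B site, also within the stretches shown, are not covered, so a gene without a match may still hold one. The H2-D1 and Psmb9 starts of RefSeq lie inside the longer gene spans of GENCODE M21, so their stretches are upstream only of the RefSeq start. A match is a description of letters, not a bound site.

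The heavy chain H2-D1 was the most widespread of the class I heavy chains. In control cells it stood at 74.2 CPM over all reads, and single cells ran from 0 to 794 CPM with a median of 0. At day 1 it stood at 69.1 CPM, with a highest cell of 795 CPM and a median of 0. At day 14 the group stood at 741 CPM, with a median of 403 CPM and a highest cell of 3416 CPM. GFP cells stood at 22 CPM and Id2 cells at 205 CPM, both with a median of 0 and with highest cells of 1072 and 4599 CPM. Of the control reads 68.3% came from 1 cell, and without the top cell of each group control cells stood at 25.2 CPM and day 1 cells at 57.4. So the ranges of all groups overlapped at 0, and the day 14 cells differed in how many cells held the transcript. A read was found in 3 of 31 control cells, 22 of 58 day 1 cells, 22 of 29 day 14 cells, 6 of 59 GFP cells and 32 of 71 Id2 cells. After thinning each cell to 100000 reads, which left out 2 shallow control cells, the shares were 10.3% (exact 95% interval 2.19 to 27.4), 25.9% (15.3 to 39.04), 75.9% (56.5 to 89.7), 5.08% (1.06 to 14.1) and 35.2% (24.2 to 47.5). These intervals cover the drawing of cells, not animals. The day 14 interval lay above those of control and day 1 cells, and the Id2 interval above that of GFP cells.

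H2-K1, the other heavy chain, was scarcer and more uneven. Control cells stood at 62.2 CPM, but 94.6% of those reads came from 1 cell, and the level was 3.46 CPM without it. Day 1 cells stood at 14.3 CPM and day 14 cells at 259 CPM, with a day 14 median of 29.9 CPM and a highest cell of 1402 CPM. In the 59 GFP cells H2-K1 had 2 reads in all (0.00902 CPM), against 44626 reads and 168 CPM in the 71 Id2 cells. The Id2 to GFP ratio was 18599, with a counting interval of 5148 to 153584 that reflects those 2 reads. Of the Id2 reads 57.2% came from 1 cell, and 74.7 CPM remained without it. Thinned shares of cells were 6.90%, 6.90%, 51.7%, 0% and 12.7% in control, day 1, day 14, GFP and Id2 cells, and the share of 0% covers 59 cells with an exact upper bound of 6.06%. Of the 50-base words in its transcripts 9.63% also occur in other genes, and 12.8% of those of H2-D1, so reads of related class I genes may have been exchanged.

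B2m, the light chain that every class I molecule needs, had the highest level per kilobase of exon of the 10 genes in all 5 groups (47.7 to 1274 CPM per kilobase). In CPM it stood at 252 CPM in control cells, with a median cell of 4.67 and a highest of 2119. Day 1 cells stood at 47.2 CPM (median 0, highest 776) and day 14 cells at 1096 CPM (median 368, highest 3664). GFP cells stood at 41.04 CPM (median 0, highest 483) and Id2 cells at 188 CPM (median 32.3, highest 1587). The lowest cell was at 0 in every group, so the groups overlapped, while the day 14 median lay far above the others. B2m was the gene least tied to 1 cell with Id2, where the top cell gave 7.36% of the reads. In control cells the top cell gave 53.5%. After thinning, a B2m read was found in 82.8% of day 14 and 31.03% of day 1 cells and in 51.7% of control cells. With Id2 the share was 53.5% (interval 41.3 to 65.5), against 28.8% after the GFP virus (interval 17.8 to 42.1).

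**Figure D1:**
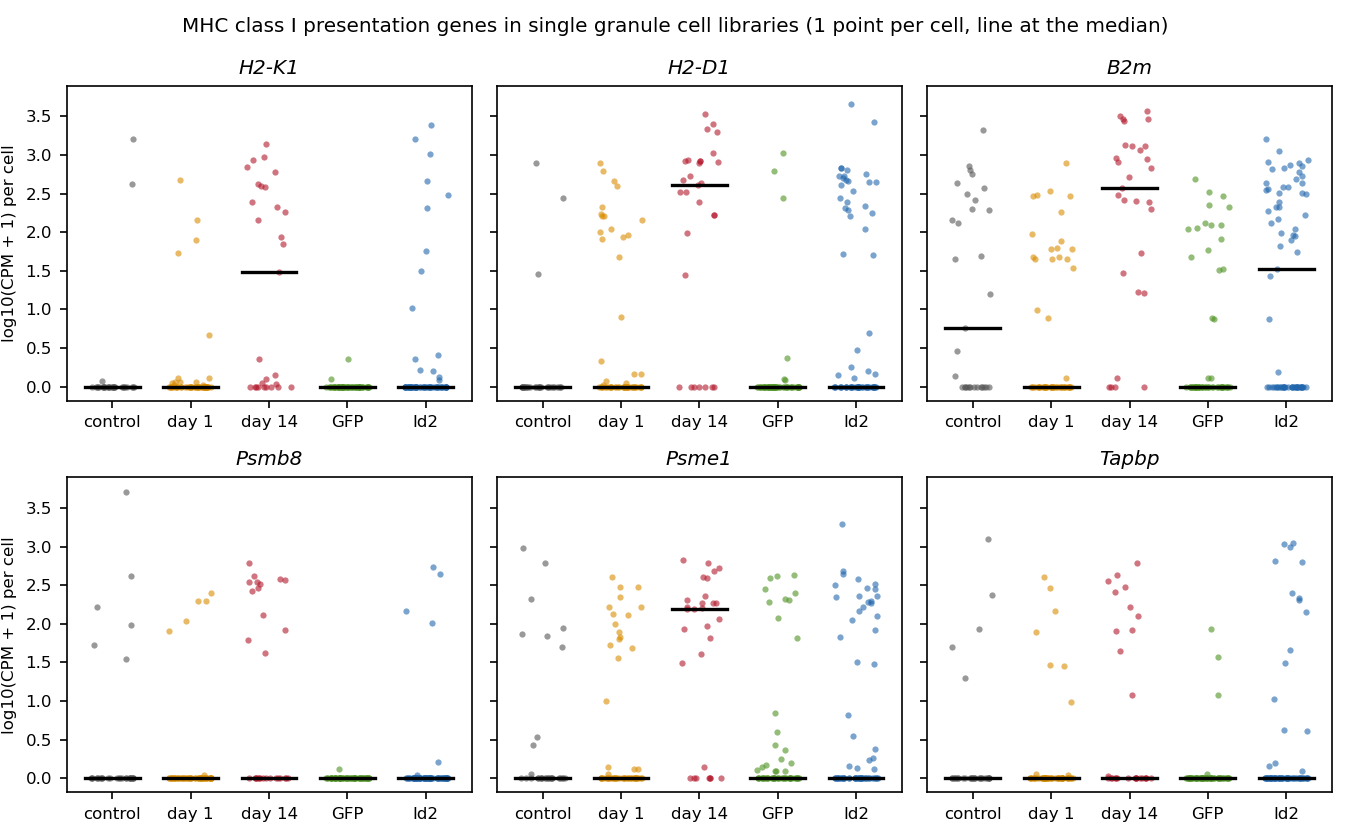
Level of 6 of the genes in each cell of the 5 groups, as log10 of CPM + 1 on the vertical axis; each point is 1 cell and the black line is the group's median. Medians above 0 were found for H2-K1, H2-D1 and Psme1 at day 14 (29.9, 403 and 152 CPM) and for B2m in control, day 14 and Id2 cells.

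Among the proteasome genes, Psme1, a subunit of the activator cap, was found in all groups. It stood at 50.97 CPM in control cells and 44.1 at day 1, 203 at day 14, 45.04 in GFP and 120 in Id2 cells. The day 14 median was 152 CPM and the highest cell 676 CPM, whereas the median was 0 in the other groups. With Id2, 39.7% of the reads came from 1 cell, and 73.8 CPM remained without it. In control cells 66.5% came from 1 cell, and 17.7 CPM remained, against 33.5 at day 1 and 37.9 in GFP cells without theirs. Thinned shares were 24.1%, 25.9%, 75.9%, 20.3% and 33.8% in control, day 1, day 14, GFP and Id2 cells, so Psme1 was about as widespread at day 14 as H2-D1.

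Psmb8, the inducible subunit that replaces Psmb5, stood at 42.9 CPM in control cells, 12.01 at day 1 and 127.2 at day 14. It had 1 read in all 59 GFP cells and stood at 9.67 CPM with Id2. Reads were found in 6 of 31, 6 of 58, 13 of 29, 1 of 59 and 6 of 71 cells in that order. The highest cell for Psmb8, at 5110 CPM, was a control cell. It was the shallowest library of the 5 groups, at 32487 reads, and was left out of thinning. It held 3170.5 CPM of microglia markers and no read of another of the 10 genes. Because of that cell the day 14 to control ratio depends on how cells are weighted: it was 1.55 on the log2 scale from summed reads and -0.58 from the mean over cells. Psmb9, which replaces Psmb6, was lower per kilobase in all 5 groups. In CPM it stood at 3.27 CPM in control cells, all from 1 cell, 1.55 at day 1, again from 1 cell, 15.6 at day 14 and 4.99 with Id2. GFP cells had 0 reads of Psmb9 in 221823689, which allows up to 0.0135 CPM (3 counts over the group), so Id2 cells were at least 369-fold higher against that floor. Of the Id2 reads of Psmb9 48.1% came from 1 cell, and 2.61 CPM remained without it.

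Per kilobase of exon, the inducible subunits were a minor part of each pair except for Psmb10, the third inducible subunit, whose constitutive partner is Psmb7. Psmb8 made up 7.83% of the sum of Psmb8 and Psmb5 in control cells, 2.71% at day 1, 27.9% at day 14, 0.00151% in GFP and 2.67% in Id2 cells. Psmb9 made up at most 2.15% of its pair, at day 14. Psmb10 made up 35.4%, 34.5%, 55.8%, 21.5% and 56.4% of its pair in control, day 1, day 14, GFP and Id2 cells. These shares depend on lengths that merge all annotated exons of a gene. They were 3.381 kilobases for Psmb8 against 0.899 for Psmb5, and 1.705 for Psmb10 against 3.421 for Psmb7. In CPM without the division by length, Psmb8 was above Psmb5 and Psmb10 below Psmb7 at day 14. Of 16 constitutive proteasome and activator genes, 3 were 2-fold or more above control cells at day 14, a share near that of all genes (25%), with a median log2 ratio of 0.52. With Id2 0 of the 16 were 2-fold above GFP cells, where 14.9% of all genes were, with a median of -0.22.

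**Figure D2:**
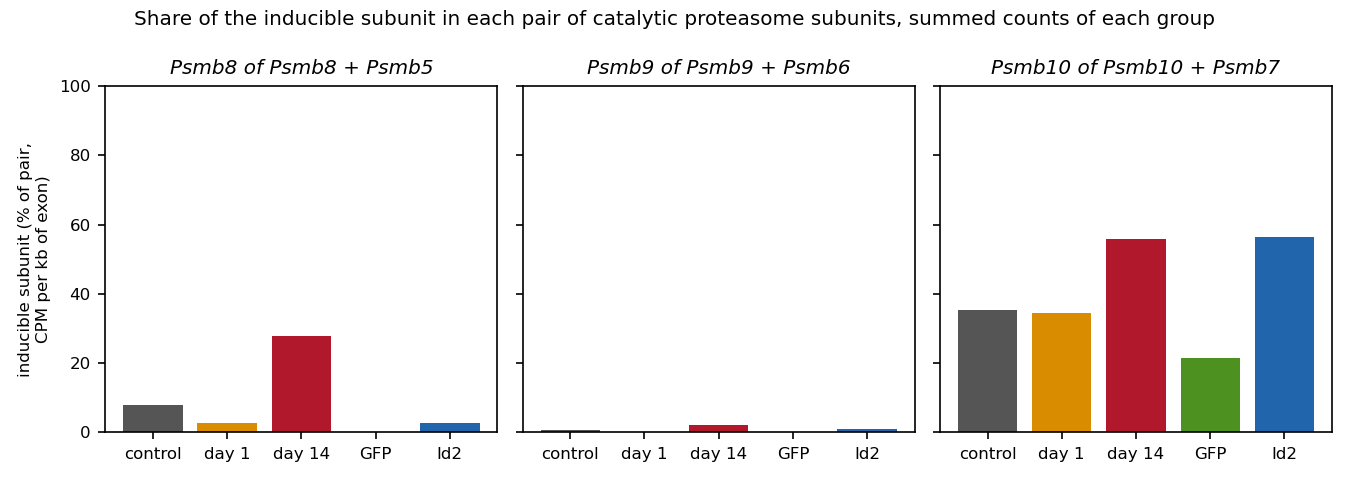
Share of the inducible subunit in each of 3 pairs of catalytic proteasome subunits, in percent of the pair's CPM per kilobase of exon, from the summed reads of each group. Psmb8 reached 27.9% at day 14 and Psmb10 55.8% at day 14 and 56.4% with Id2, while Psmb9 stayed at or below 2.15%. The shares depend on the exon lengths used.

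The peptide transporter was barely detected. Tap1 had 1 read in control cells, stood at 5.52 CPM at day 1 and 8.92 at day 14, had 6 reads with GFP and stood at 7.62 CPM with Id2. Its reads came from 3 cells at day 1, 3 at day 14 and 8 with Id2. Tap2 stood at 7.34 CPM in control cells, 1.91 at day 1, 6.22 at day 14, 0.117 in GFP and 13.7 in Id2 cells. At day 14 1 cell gave 99.8% of its reads. Thinned to equal depth, Tap1 was found in 0% to 7.04% of cells and Tap2 in 0% to 6.90%, and the intervals of all 5 groups overlapped for both genes.

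Tapbp, which tethers class I to the transporter, stood at 50.1 CPM in control cells, of which 90.9% came from 1 cell, 19.7 at day 1, 77.1 at day 14, 2.98 in GFP and 60.2 in Id2 cells. The median cell was at 0 in all groups, and the highest cell reached 1233 CPM in control cells, 606 at day 14, 85.5 in GFP and 1102 in Id2 cells. Thinned shares were 17.2%, 12.1%, 37.9%, 5.08% and 18.3%. The transactivator Nlrc5 had 0 reads in control cells, 33 reads in 4 day 1 cells and 329 reads in 1 day 14 cell. It stood at 1.34 CPM with GFP, where 1 cell gave 87.9% of the reads, and 9.999 with Id2, where 1 cell gave 58.9%. Without those cells the levels were 0.165 and 4.13 CPM. Nlrc5 was found in 7 GFP cells and 7 Id2 cells (5.08% and 5.63% after thinning), so its higher Id2 level lay in a few cells.

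**Figure D3:**
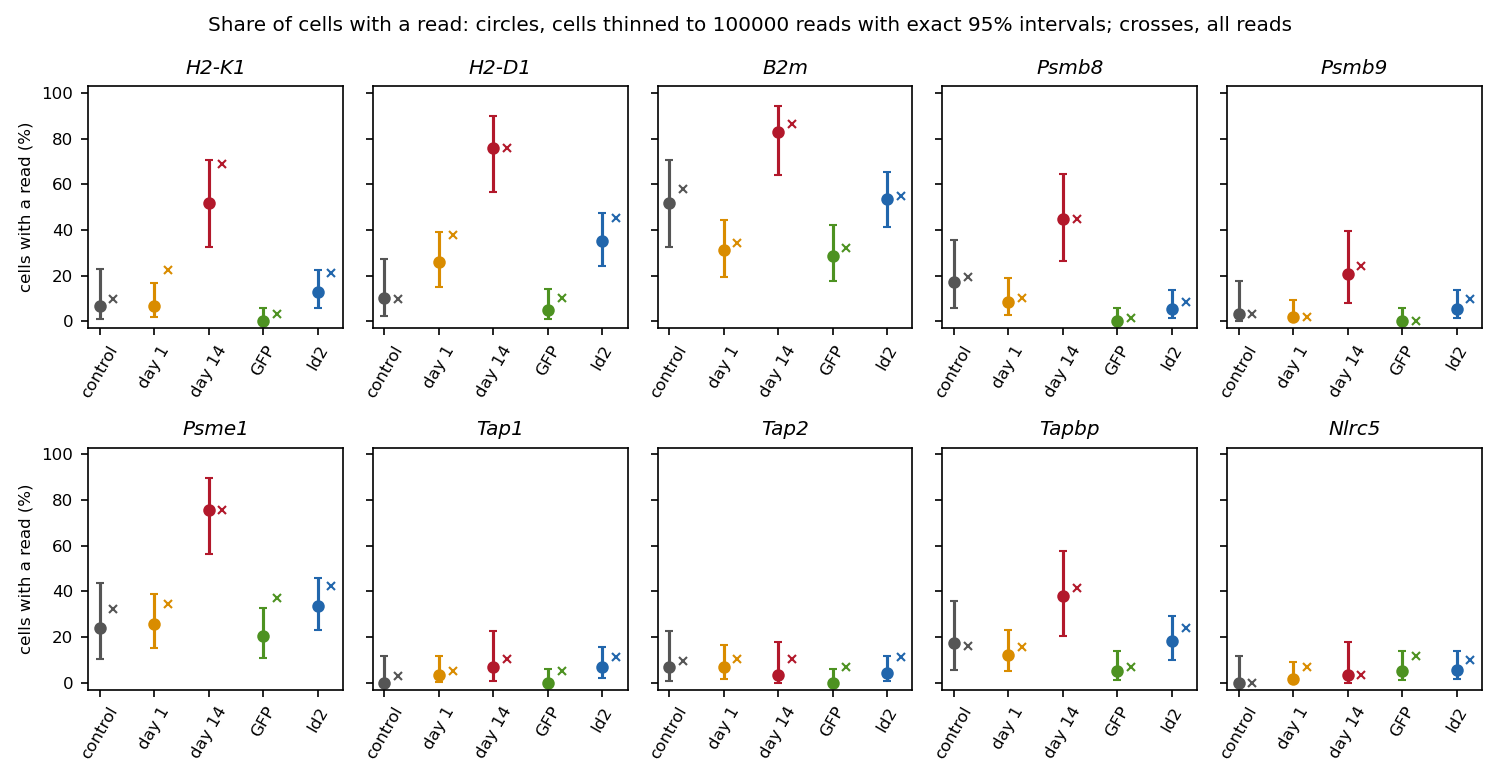
Percent of cells with at least 1 read of each of the 10 genes in the 5 groups; circles are cells thinned to 100000 reads with exact 95% intervals, and crosses use all reads. Day 14 cells held the highest share for H2-K1, H2-D1, B2m, Psmb8, Psmb9, Psme1 and Tapbp, and no group exceeded 7.04% for Tap1, Tap2 or Nlrc5 after thinning.

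Across the pathway, 8 of the 10 genes were 2-fold or more above control cells at day 14 and none was 2-fold lower, with a median log2 ratio of 1.97 (all ratios are of CPM after adding 1 CPM). Of all genes with a read in either group 25% were 2-fold higher and 16.5% lower, with a median of 0.06. The 2 exceptions were Tap2 (-0.21) and Tapbp (0.61). The largest ratio among genes with reads in 20% of the cells and at 5 CPM in a group (23.8% of such genes were 2-fold higher) was that of H2-D1, 3.30, followed by B2m at 2.11 and H2-K1 at 2.04. This order rested on single control cells: without each gene's top cell the ratios were 4.60, 2.90 and 5.42, with H2-K1 first. For Nlrc5 the day 14 level was at least 28.3-fold above the floor of 3 counts in control cells. For Tap1 the log2 ratio was 3.29 against 1 control read.

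At day 1 the pathway was not higher. This comparison, that of day 14 and that of GFP cells share the control cells. Tap1 alone was 2-fold higher than in control cells (2.68 on the log2 scale against 1 control read) and 5 genes were 2-fold lower, with a median of -1.02, where 23.3% of all genes were higher and 15% lower. Of the 4 genes with reads in 20% of cells and at 5 CPM in a group, 0 were higher and 2 lower, where 23.2% and 15.2% of such genes were. B2m (-2.40), H2-K1 (-2.05), Psmb8 (-1.75), Tap2 (-1.52) and Tapbp (-1.30) were the lower genes, while H2-D1 was at -0.10 and Psme1 at -0.21. Without each gene's top cell H2-D1 was at 1.16 and Psme1 at 0.88. This direction rested on the control cells used: with the 9 control cells whose titles do not start with J as the reference the median was 1.70, and with GFP cells as the reference it was 1.49. Without the top cell of each gene it was 0.42. H2-D1 was found in more cells at day 1 (22 of 58) than in control cells (3 of 31), and day 1 cells were the deeper ones. From day 1 to day 14, a comparison without the control cells, 9 genes were 2-fold higher and none lower, with a median of 2.44, where 17.2% of all genes were higher and 17.4% lower. B2m led with 4.51, then H2-K1 with 4.09 and H2-D1 with 3.41. Tap1, at 0.61, was the exception.

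With Id2 all 10 genes were 2-fold or more higher than with GFP, with a median of 3.12, where 14.9% of all genes were 2-fold higher and 14.2% lower and the median was -0.0023. Among the 5 genes that met the limit on cells and level (H2-K1, H2-D1, B2m, Psme1 and Tapbp), all 5 were higher, where 10.2% of such genes were. H2-D1 was 9.34-fold higher (counting interval 9.07 to 9.62), B2m 4.59-fold (4.49 to 4.69), Psme1 2.65-fold (2.60 to 2.72), Tapbp 20.2-fold (18.7 to 21.8) and Nlrc5 7.47-fold (6.62 to 8.45). Those intervals cover the counting of reads only, which are not independent molecules. Without each gene's top cell 9 of the 10 were 2-fold higher (median 2.52), with Psme1 just under the limit at 0.95. GFP cells were themselves low in these genes: 7 of 10 were 2-fold lower than in control cells and 1 was higher (median -2.34), where 13.4% of all genes were lower and 22.5% higher. Psme1 was at -0.17, and at 1.06 without the top cells. Against the 9 control cells with other titles the median was 0.022. So the Id2 difference is stated against a group with little class I RNA. Id2 against control cells was not 1 of the comparisons, so no share of all genes is given for it. By the levels given above, Id2 cells were higher than control cells for H2-D1 (205 against 74.2 CPM), H2-K1 (168 against 62.2) and Psme1 (120 against 50.97), and slightly for Tapbp (60.2 against 50.1). They were lower for Psmb8 (9.67 against 42.9 CPM) and B2m (188 against 252 CPM), but B2m was higher without the top cell of each group (176.6 against 125.2 CPM).

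Id2 and GFP cells share title sets, which allowed the comparison to be made within each set. In the titles numbered up to 95 (43 Id2 and 43 GFP cells), B2m stood at 136 against 46.8 CPM, H2-D1 at 263 against 22.9, H2-K1 at 237 against 0.00567 and Tapbp at 59.8 against 2.65. In the titles above 95 (28 and 16 cells), B2m stood at 297 against 18.7 CPM, H2-D1 at 85.3 against 18.2, H2-K1 at 23.4 against 0.0219 and Tapbp at 61.0 against 4.28. The H2-K1 level rested mainly on few Id2 cells in each set. Its highest cells stood at 2472 and 1631 CPM in the first set. In the second set they stood at 460 and 56.1 CPM. The medians over the 10 genes were 3.11 and 3.74. Psmb8 went a different way: it had reads in 6 of the 43 Id2 cells of the first set and in none of the 28 of the second.

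The genes appeared together in the same cells at day 14. A heavy chain and B2m, the pair that makes a class I molecule, were both found in 22 of 29 thinned cells (75.9%, interval 56.5 to 89.7), that is in each of the 22 cells with a heavy chain. The same pair was found in 4 of 29 control cells, 7 of 58 at day 1, 2 of 59 with GFP and 21 of 71 with Id2 (29.6%, 19.3 to 41.6). Without thinning the shares were 16.1%, 17.2%, 75.9%, 5.08% and 35.2% in control, day 1, day 14, GFP and Id2 cells. At least 4 of the 10 genes were found in 17 day 14 cells and 11 Id2 cells, against 2 control, 3 day 1 and 0 GFP cells. Across the 29 day 14 cells, B2m followed H2-D1 (Spearman's rho 0.84), Psmb8 (0.76) and Psme1 (0.73), and H2-K1 followed H2-D1 (0.71). With Id2 the links were weaker, 0.27 between B2m and H2-D1 and 0.40 between B2m and Psme1 over 71 cells. These correlations across cells are descriptions, and the cells may share animals.

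The day 14 pattern moved with microglial RNA. The 14 microglia markers (C1qa, Cx3cr1, Csf1r, Tyrobp and others) all had reads at day 14, with cells from 0 to 27632 CPM and a median of 3454. In control cells the median was 1364 CPM, at day 1 46.3, with GFP 3.56 and with Id2 87.2. P2ry12 was at 0 at day 1, and no marker was at 0 in the other groups. The mean rank of the 10 genes followed the summed microglia markers at 0.78 over 29 day 14 cells, 0.48 over 29 control cells, 0.41 over 71 Id2 cells, 0.31 over 58 day 1 cells and 0.08 over 59 GFP cells. Cells at or above 1000 CPM of these markers, called microglia-rich here, were 20 of 29 at day 14, 17 of 31 in control cells, 11 of 71 with Id2, 7 of 58 at day 1 and 2 of 59 with GFP.

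**Figure D4:**
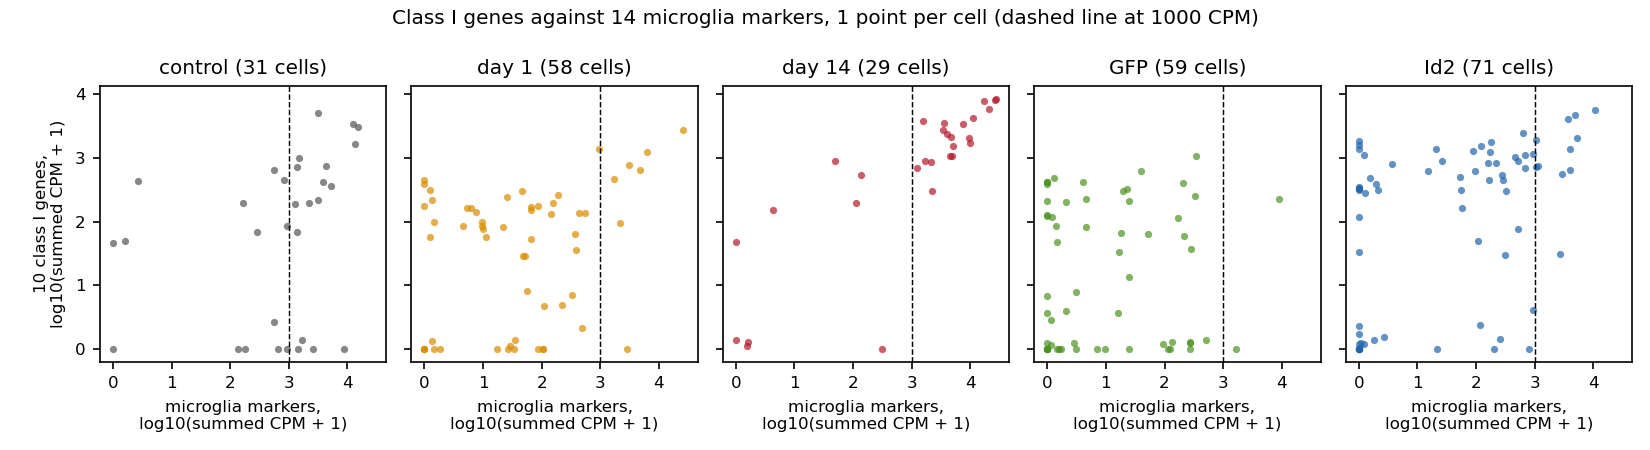
Summed CPM of the 10 class I genes (vertical) against summed CPM of 14 microglia markers (horizontal) in each cell, both as log10 of CPM + 1, 1 panel per group; the dashed line marks 1000 CPM of microglia markers. At day 14 the 20 cells right of the line all held class I reads, and with Id2 many cells left of the line held them as well.

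In the 20 microglia-rich day 14 cells, B2m was found in all 20 at 1543 CPM, H2-D1 in 18 at 1033 CPM, H2-K1 in 16 at 361 CPM, Psme1 in 18 at 277 CPM and Psmb8 in 13 at 182 CPM. In the other 9 day 14 cells, B2m stood at 67.4 CPM in 5 cells, H2-D1 at 70.7 CPM in 4, H2-K1 at 25.5 CPM in 4 and Psme1 at 31.4 CPM in 4. Psmb8 had no read in those 9. The 14 control cells below the limit had B2m at 60.3 CPM in 5 cells and no read of either heavy chain or of Psmb8. So below the limit B2m was level between day 14 and control cells (log2 ratio 0.16), while reads of the heavy chains were seen only in the day 14 cells, 4 of 9 each, which were deeper than the control cells. After thinning H2-D1 was still found in 4 of the 9 and H2-K1 in 2. Of the H2-K1 reads 99.6% came from 1 cell, and 0.123 CPM remained without it, whereas H2-D1 stood at 50.3 CPM without its top cell. Over the 10 genes, 5 were 2-fold higher and 1 lower there, with a median of 0.91, where 26.5% of all genes were higher and 27% lower. That count rests largely on 1 library: the cell that gave most of the H2-K1 reads also gave 99.5% of the Tap1, 93.96% of the Tapbp and all of the Psmb9 reads. The amount of class I RNA per microglial RNA also differed among microglia-rich cells. For each read of a microglia marker there were 0.140 class I reads in control cells, 0.131 at day 1, 0.363 at day 14 and 0.618 with Id2. Most of those Id2 class I reads came from 2 of the 11 cells. They stood at 4019 and 4601 CPM of the 10 genes, the latter nearly all H2-D1 (4599 CPM). Whether the class I reads at day 14 came from microglia, from granule cells or from both was not tested.

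With Id2 the genes were also higher below the microglia limit. In 60 Id2 cells against 57 GFP cells, 9 of the 10 genes were 2-fold higher and none lower, with a median of 2.37, where 14.5% of all genes were higher and 15% lower. B2m stood at 159 against 39.05 CPM, H2-K1 at 141 against 0.00914 (31.2 CPM without 1 Id2 cell that gave 78.8% of its reads) and Tapbp at 49.2 against 3.03, while Psme1 stood at 74.4 against 45.7 (log2 ratio 0.69). H2-D1 was found in 24 of 60 Id2 cells and 6 of 57 GFP cells there (log2 ratio 2.35). The microglia markers were still unequal there, 164 against 66.4 CPM. Across those 60 Id2 cells the mean rank of the 10 genes still followed these markers at 0.34, against 0.41 over all 71. In the 57 GFP cells it did so at 0.07. A limit of 100 CPM, chosen after seeing the data, left 37 Id2 and 44 GFP cells. There B2m stood at 153 against 41.7 CPM, H2-D1 at 110 against 15.4 and Tapbp at 62.6 against 2.49, but H2-K1 at 14.6 against 0.00611 and Psmb8 at 2.51 CPM in 1 cell. Among other cell types, the 8 endothelial markers summed to 33.3 to 67.3 CPM in the 5 groups, with Cldn5 at 0 in control, day 1 and day 14 cells, and the 6 T and NK cell markers to at most 4.60 CPM, with 3 to 4 of the 6 at 0 in each group. At most 1 cell in any group passed 100 CPM of the T and NK markers. The mean rank of the 10 genes followed endothelial markers at -0.10 to 0.16 over the cells of each group. The 6 astrocyte markers were higher, at 254 CPM with Id2 against 174 with GFP and 215 at day 14 against 288 in control cells. The 5 oligodendrocyte markers stood at 227 against 174 CPM and at 329 against 159 in the same comparisons. The part of astrocyte and oligodendrocyte RNA in the class I levels was not tested.

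**Figure D5:**
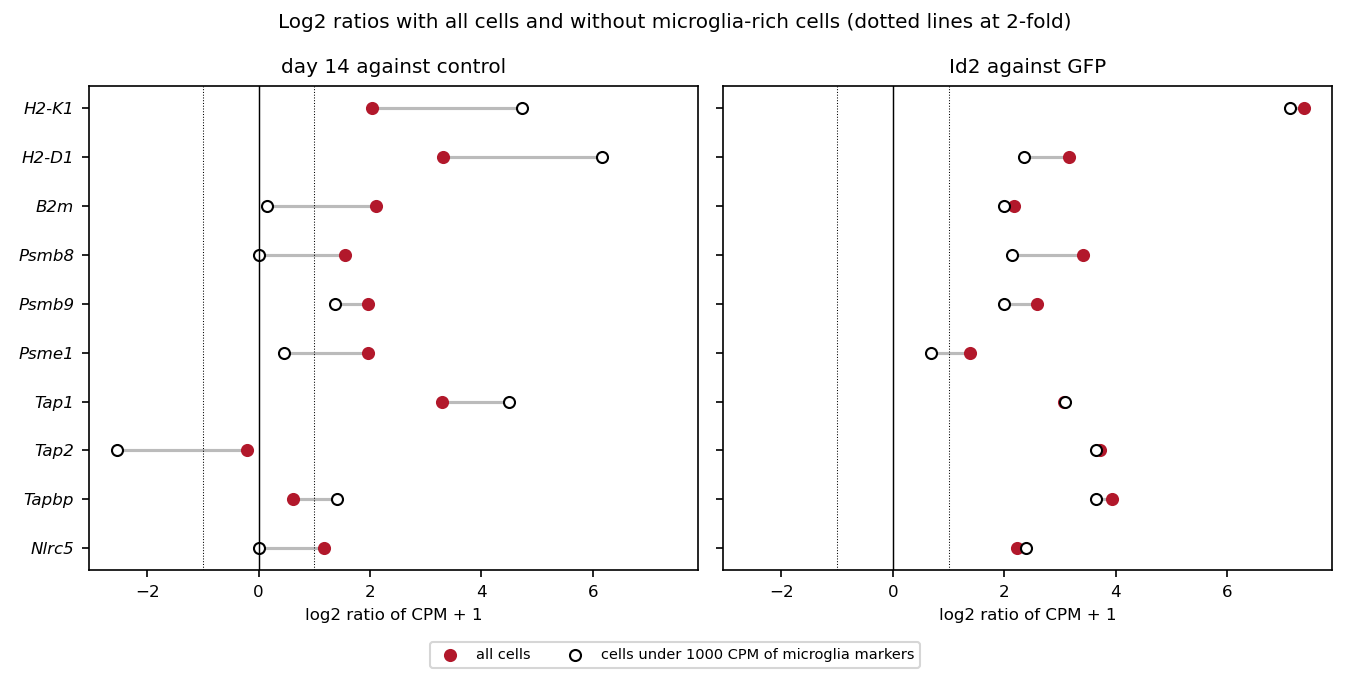
Log2 ratio of CPM + 1 for each of the 10 genes, day 14 against control cells (left) and Id2 against GFP cells (right), with all cells (red) and with cells under 1000 CPM of microglia markers (open). Without microglia-rich cells B2m at day 14 moved from 2.11 to 0.16 and Psmb8 to 0, and with Id2 B2m moved from 2.17 to 2.00.

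Interferon-stimulated genes moved alongside the 10 genes. Of 24 such genes, 19 were 2-fold above control cells at day 14 (median 3.67) and 21 were 2-fold higher with Id2 than with GFP (median 4.15), against the shares of all genes given above. Ifit1, an interferon-induced RNA-binding protein, stood at 154 CPM at day 14 against 0.164 in control cells, and at 513 CPM with Id2 against 0.131 with GFP. Below the microglia limit 21 of the 24 were still higher with Id2 (median 3.91), while 10 of 24 were at day 14 (median 0.01), where 14.5% and 26.5% of all genes were. The mean rank of the class I genes followed the summed interferon-stimulated genes at 0.87 over the 29 day 14 cells and 0.60 over the 71 Id2 cells, against 0.42 at day 1, 0.18 in control and -0.17 in GFP cells. Below the microglia limit the values were 0.81 over 9 day 14 cells and 0.66 over 60 Id2 cells. Among Id2 cells the class I genes did not follow the level of Id2 itself (-0.14 over 71 cells). In the other groups the values were 0.48 at day 14, 0.14 in control, 0.13 at day 1 and -0.10 in GFP cells.

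The regulators of the pathway were read from 24 interferon receptors, kinases and transcription factors. At day 14 14 of them were 2-fold higher than in control cells and 1 was lower, and with Id2 9 were higher and 1 lower than with GFP, where 25% and 14.9% of all genes were higher and 16.5% and 14.2% lower. Below the microglia limit 9 were higher and 3 lower at day 14 (median 0.23, with 26.5% and 27% of all genes) and 9 and 1 with Id2. Irf1, which acts on class I and immunoproteasome promoters, stood at 178 CPM with Id2 against 0.284 with GFP, and Irf7 at 113.5 against 0.243. At day 14 Irf7 stood at 410 CPM against 22.5 and Irf9 at 140 against 8.99, whereas Nfkb1, an NF-kappa-B subunit, was lower at 6.73 against 66.6.

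Other class I and peptide loading genes were mixed. Of 20, 11 were 2-fold higher and 1 lower at day 14 than in control cells, and 7 were higher and 1 lower with Id2 than with GFP, with the same shares of all genes. Below the microglia limit 3 of the 20 were higher at day 14 (15%, below the 26.5% of all genes, median 0.018) and 6 with Id2. The nonclassical heavy chains were among the higher ones. H2-Q7 stood at 82.2 CPM at day 14 with no read in control cells, H2-T23 at 32.9 and H2-M3 at 31.4, each also with no control read. With Id2 H2-T22 stood at 144 against 7.56 CPM and H2-T23 at 15.4 against 0.0361, while Tapbpl, a tapasin relative, was lower at 1.09 against 12.4. The general chaperones Pdia3 and Calr were under 2-fold apart: Pdia3 stood at 329 CPM in Id2 and 261 in GFP cells (261 and 265 below the microglia limit), and Calr at 270 and 181 CPM (284 and 184). Of 7 class II genes, which present peptides taken up from outside, 2 were 2-fold higher and 1 lower at day 14, near the shares of all genes, and Cd74, the class II chaperone, stood at 28.3 against 27.2 CPM. With Id2 5 of the 7 were 2-fold higher and 1 was lower, at summed levels of 65.2 against 59.6 CPM. Below the microglia limit 3 of the 7 were higher with Id2, and the summed levels were 40.1 against 60.5 CPM.

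The genes whose levels across cells were most like those of the 10, by the mean of the Spearman correlations within the 5 groups (29 to 71 thinned cells each), were Atox1 (0.39), Rplp2 (0.38), Rpl32 (0.38), Tuba1b (0.38), Ly6e (0.37), Ctsd (0.36), Gfm2 (0.35), Foxn3 (0.35), Itm2b (0.33) and Gm20503 (0.33), out of 4265 ranked. These are weak values in sparse counts, and the within-group values of Ctsd, a lysosomal protease, ran from 0.05 with GFP to 0.81 at day 14.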

How the data were processed

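Patch-seq libraries of single granule cells were made with the Nextera XT kit, per the labels. Trimmomatic, STAR, featureCounts and GRCm38 are named in the submitters' processing notes, but no source used here gives versions, the strand setting or the handling of reads that match several genes. Deposited by the authors were counts (whole reads per gene and cell) and a scaled signal in which all 252 cells equal the counts times 1 factor per cell (0.187 to 287). The counts were used, and the signal served as an alternative. The 13 titles without a column were not used here. Counts were summed over a group's cells and scaled to CPM, with exact Poisson intervals, and shares have exact Clopper-Pearson intervals (95%). Log2 ratios follow addition of 1 CPM, and 2-fold is the limit for higher and lower. Limits for measured genes were a read in 20% of cells and 5 CPM in a group. Reads of a group ranged from 67177695 to 464410001. Lengths come from GENCODE M21, in which 21873 of 22800 symbols matched. The ratio, thinning and likeness steps were tested on simulated data. The named genes are the 10 members, up to 4 measured genes of a list by size of ratio, the 10 genes most like the members, and markers and partners beside a member (Psmb10, Pdia3, Calr and Cd74). The members and the 14 lists were chosen with earlier results of these data known. The kappa-B and interferon motifs were shortened to 9 letters after longer forms had been searched. Python 3.11.15, numpy 2.4.6, scipy 1.17.1 and pandas 2.3.3 were used.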

Additional observations from a re-analysis of the deposited data

Results flagged for a closer look

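Libraries that no comparison used held reads of these genes above the control level and its counting interval. Among 10 control cells labelled as failing quality control, Psmb8 stood at 142 CPM in 2 cells, Psmb9 at 7.39 CPM in 1 cell and Psme1 at 67.97 CPM in 1 cell, against 42.9, 3.27 and 50.97 CPM in the passing control cells. Among 16 failing Id2 cells, H2-D1 stood at 641 CPM in 3 cells, H2-K1 at 134 CPM in 1 cell and Tap2 at 104.5 CPM in 1 cell. Control cells stood at 74.2, 62.2 and 7.34 CPM, and passing Id2 cells at 205, 168 and 13.7 CPM. The failing Id2 cells were below control cells for B2m (177 against 252 CPM) and Psme1 (2.11 against 50.97). They had no read of Psmb8, Psmb9, Tap1, Tapbp or Nlrc5. Among 5 failing day 1 cells, H2-D1 stood at 159 CPM in 1 cell. In the 2 libraries labelled low_DG, Psme1 stood at 65.3 CPM in 1 cell. Each of these 2 matched a control cell (Pearson's r 0.997 and 0.998), so they may repeat cells already counted among the control cells. Each value above the control level rests on 1 to 3 cells. The 7 failing GFP cells held 1 read of Tap2 and none of the other 9 genes, and the 2 cells of the other side at day 1 held reads of Psme1 only.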

How the results depend on the processing

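No paired analysis was possible because no label ties a cell of 1 group to a cell of another. Below, counts are of the 10 genes at 2-fold and medians are log2 ratios. Under 1000 CPM of microglia markers, 29.3% of all genes were higher and 15.9% lower at day 1 against control cells. At day 14 against control cells 26.5% and 27% were, and in GFP against control cells 27.8% and 13.2%. Where no share of all genes is given for an alternative, its counts are not set against one. Day 1 against control was the least stable comparison: in place of 1 higher and 5 lower (median -1.02), GFP cells as the reference gave 7 and 1 (1.49), the other control titles 6 and 2 (1.70), cells under 1000 CPM of microglia markers 4 and 1 (0.45), cells under 100 CPM 6 and 1 (1.74), leaving out each gene's top cell 3 and 2 (0.42), and J titles 2 higher. H2-K1 there turned to 3.92, 0.41, 3.09, 3.38 and 0.82 in the first 5 of these, and B2m to 0.20 with GFP as the reference. Day 14 against control went from 8 higher and 0 lower to 5 and 1 under 1000 CPM, and B2m turned to -0.85 under 100 CPM; 1 gene was lower without the deepest 10% of cells, without top cells and with the scaled signal, and Psmb8 was -0.58 by the mean over cells and -1.56 with the scaled signal. Day 14 against day 1 went from 9 higher and 0 lower to 5 and 2 under 1000 CPM (14.6% and 28.9% of all genes; Psmb8 -2.29, Psme1 -0.31), 5 and 1 under 100 CPM (Psmb8 -0.0087, Psme1 -0.83), and had 1 lower without top cells or the deepest cells. GFP against control moved from 1 higher and 7 lower (median -2.34) to 3 and 3 (0.022) with other titles, 2 and 2 (0.0033) under 1000 CPM and 4 and 1 (0.11) under 100 CPM. Adding 10 CPM in place of 1 left 0 higher at day 1 and 5 at day 14 (each against control), 6 with Id2 and 0 in GFP against control cells. Apart from that, the count of higher genes for Id2 against GFP stayed within 1.5 times of 10 under each alternative run. The cause of these shifts was not tested, except that fewer cells enter where cells are left out. Of the other values for single genes and medians, 513 moved by more than their counting interval, with no 2-fold difference changing sign, and 246 moved by less. Thinning took H2-D1 from 22 to 15 of 58 day 1 cells and Psme1 from 22 to 12 of 59 GFP cells, so shares of cells depend on depth. Tap1, Tap2, Psmb9 and Nlrc5 had reads in at most 8 cells of any group.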
